A study of Homo sapiens with 24 samples.

Results

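Small nucleolar RNAs (snoRNAs) of the box C/D class, named SNORD, and of the box H/ACA class, named SNORA, were followed through a bromouridine pulse-chase in U2OS cells, a human osteosarcoma line. A gene was taken as a member when its symbol was SNORD or SNORA followed by a number and its mean level over the 24 libraries was at least 1 TPM (the deposited level unit, in which a transcript's reads are divided by its length and every library is brought to the same sum). Of 370 such symbols in the table, 157 were kept, namely 68 SNORD and 89 SNORA, among 13416 genes kept in all. The cells were a custom double stable Tet-off line, in which leaving out doxycycline turns on the S254D form of TOB2. The uninduced arm received doxycycline and the induced arm did not, and both arms were otherwise the same line. Bromouridine, a uridine analog taken up into new RNA, marked the RNA made before the chase, and labelled RNA was pulled down with an antibody from cytoplasmic RNA at 0, 0.5, 1, 2, 4 and 6 h of chase. Each of the 12 groups of arm and time had 2 libraries, replicate 1 and replicate 2, and the labels do not say whether these came from separate cultures.

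Most human snoRNAs are cut out of the introns of other genes, called host genes, after splicing, and are trimmed by exonucleases up to the ends that their bound proteins protect. Box C/D snoRNAs pair with ribosomal or spliceosomal RNA and guide ribose methylation by fibrillarin, while box H/ACA snoRNAs guide the change of uridine to pseudouridine by dyskerin. Both classes work mainly in the nucleolus, and a few members take part in the cleavage of the ribosomal RNA precursor.

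TOB2 itself, measured first as a check of the arms, lay between 92.3 and 267 TPM in the 12 uninduced libraries and between 499 and 725 TPM in the 12 induced ones, with medians of 222 and 617 TPM. The mesenchymal marker VIM averaged 580 TPM, 3 of 7 mesenchymal markers and 1 of 4 late osteoblast markers reached 1 TPM, the epithelial marker EPCAM was at 0 and CDH1 was at 0.179 TPM, although the keratins KRT8 and KRT18 were abundant, and LYZ, at 29.7 TPM, was the leukocyte marker of 4 that reached 1 TPM. Long nuclear RNAs were present in the cytoplasmic preparation. MALAT1, NEAT1 and KCNQ1OT1 summed to 233 to 569 TPM in uninduced and 506 to 1098 TPM in induced libraries. The RNAs RMRP, MIR6723 and RPPH1 together held 21.2% to 27.5% of a library at 0 h and 7.14% to 8.45% at 6 h, which moves the scale of every other RNA along the chase. In these bulk libraries a lower level in fewer cells and a lower level in every cell cannot be told apart.

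Sequences of the snoRNAs themselves were not used here. For 4 SNORA members the RefSeq table places a microRNA gene within the snoRNA, so the same RNA letters are listed under 2 names and the division of TPM between them is uncertain. The mature microRNAs, from RefSeq with build GRCh38.p14, are shown to make that overlap visible, with the seed (bases 2 to 8) in capitals.
hsa-miR-1291, within SNORA34: uGGCCCUGacugaagaccagcagu
hsa-miR-664a-5p, within SNORA36B: aCUGGCUAgggaaaaugauuggau
hsa-miR-664a-3p, within SNORA36B: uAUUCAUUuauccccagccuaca
hsa-miR-1248, within SNORA81: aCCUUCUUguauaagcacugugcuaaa
hsa-miR-3651, within SNORA84: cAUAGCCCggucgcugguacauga
No 2 of these 5 seeds are the same. SNORA34 averaged 108 TPM and MIR1291 12.1 TPM. SNORA81 averaged 163 TPM, against 1.61 TPM for MIR1248, which was at 0 in 21 of 24 libraries. SNORA84 averaged 62.0 TPM, against 5.55 TPM for MIR3651, which was at 0 in 15. MIR664A was at 0 in all 24 libraries and SNORA36B averaged 2.95 TPM.

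The 2 classes were covered unevenly. Of the 370 symbols, 188 were at 0 in every library (176 SNORD and 12 SNORA) and 25 were above 0 but under 1 TPM (20 SNORD and 5 SNORA). All 116 symbols of the SNORD113 to SNORD116 families, which lie in imprinted clusters and are known from brain, were at 0. Just inside the filter lay SNORA57 at 1.01 and SNORD57 at 1.02 TPM, and just outside lay SNORD90 at 0.988 and SNORD74 at 0.945 TPM. Of the snoRNAs known for precursor cleavage, SNORD22 was kept at 72.4 TPM, and U3, U8, SNORD13, the SNORD14 family, SNORA73A and SNORA73B were not analysed here. The kept SNORD members had a median of the mean level of 10.9 TPM and the kept SNORA members 30.1 TPM. A mean of at least 100 TPM was reached by 10 SNORD and 25 SNORA members, of at least 20 TPM by 31 and 51, and of at least 5 TPM by 43 and 82.

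Zeros were common. Values above 0 in all 24 libraries were found for 23 of 68 SNORD and 55 of 89 SNORA members, and 33 SNORD and 6 SNORA members were at 0 in at least 12 libraries. Among members averaging under 5 TPM, the lowest value above 0 was itself high, with a median of 7.99 TPM over 25 SNORD members and 3.30 TPM over 7 SNORA members. SNORD57, for example, was above 0 in 2 libraries, at 11.3 and 13.2 TPM. Over these members the lowest value above 0 ran from 3.58 to 13.5 TPM for SNORD and from 1.38 to 6.49 TPM for SNORA.

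The summed share of both classes rose in the first hour of chase and then fell. SNORD members together held 0.308% and 0.273% of TPM in the uninduced libraries at 0 h and 0.339% and 0.243% in the induced ones. At 0.5 h the 4 SNORD values lay between 0.358% and 0.433%, and at 6 h between 0.202% and 0.221%. SNORA members held 0.613% to 0.772% at 0 h, 0.777% to 0.994% at 0.5 h and 0.593% to 0.614% at 6 h. In each of the 4 replicate series both classes were higher at 0.5 h and at 1 h than at 0 h. At 6 h the SNORD share was below that at 0 h in 4 of 4 series and the SNORA share in 3 of 4. Averaged over the libraries, the first hour (0.5 and 1 h) was 1.33 times the 0 h share for SNORD and 1.32 times for SNORA, and 6 h was 0.545 and 0.672 times the first hour. The 6 h share was 0.724 times the 0 h share for SNORD and 0.884 times for SNORA on the deposited scale, and 0.603 and 0.735 times when RMRP, MIR6723 and RPPH1 were left out of the total. These class values are a description with no test.

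**Figure D1:**
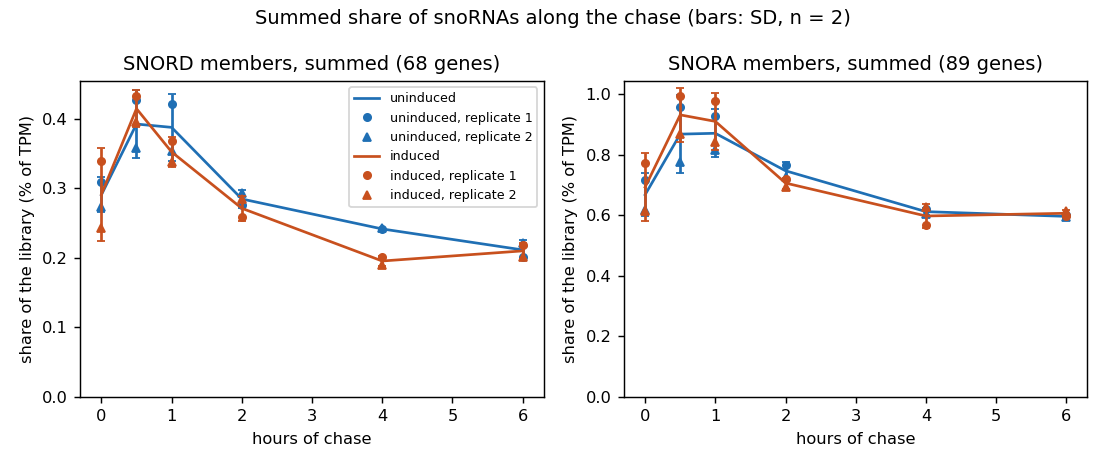
Summed share of the library's TPM (y axis, percent) held by the 68 SNORD and the 89 SNORA members against hours of chase (x axis), with a point for each library, lines through the group means and bars of 1 SD (n = 2). Both classes peak at 0.5 to 1 h, and at 6 h the SNORD share is 0.202% to 0.221% and the SNORA share 0.593% to 0.614%.

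The most abundant box C/D RNAs differed in course. SNORD12B, a box C/D RNA within the noncoding host ZFAS1, stood at 239 and 263 TPM in replicates 1 and 2 of the uninduced arm at 0 h, at 387 and 384 at 0.5 h, at 457 and 308 at 1 h, at 184 and 247 at 2 h, at 88.4 and 104 at 4 h and at 61.9 and 70.6 at 6 h. In the induced arm it went from 306 and 194 TPM at 0 h through 397 and 290 at 0.5 h, 272 and 304 at 1 h, 176 and 192 at 2 h and 82.6 and 77.6 at 4 h to 27.9 and 36.0 at 6 h. The 4 h and 6 h libraries of both arms lay below every earlier library of either arm. SNORD76, within GAS5, stood at 267 and 291 TPM in uninduced and 311 and 284 in induced cells at 0 h, at 474, 393, 382 and 522 at 0.5 h, and at 134, 146, 184 and 112 at 6 h. For SNORD76 the 0 h and the 6 h values did not overlap. SNORD45A, the highest of the class with a mean of 341 TPM, followed another course. It stood at 211 and 281 (uninduced) and 277 and 192 TPM (induced) at 0 h, rose to 398, 368, 404 and 511 at 0.5 h, and was still at 278, 349, 222 and 268 at 6 h, so that its ends overlapped.

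SNORA24 and SNORA48, at the top of their class, ended the chase near where they began. SNORA24, the highest snoRNA with a mean of 743 TPM, stood at 692 and 776 TPM (uninduced) and 712 and 584 (induced) at 0 h, and at 766, 648, 850 and 748 at 6 h. SNORA48 stood at 452, 431, 587 and 463 TPM at 0 h, at 738, 698, 769 and 744 at 1 h, and at 452, 451, 415 and 515 at 6 h, a rise and return that left its ends overlapping. SNORA61, within the noncoding host SNHG12, fell deeply: 170, 218, 144 and 151 TPM at 0 h, then 44.7, 53.0, 29.2 and 58.3 at 4 h, and 20.3, 58.0, 18.3 and 50.8 at 6 h. SNORA18, within TAF1D, went the other way, from 50.9, 28.1, 55.0 and 16.3 TPM at 0 h to 127, 139, 165 and 122 at 6 h, with no overlap.

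**Figure D2:**
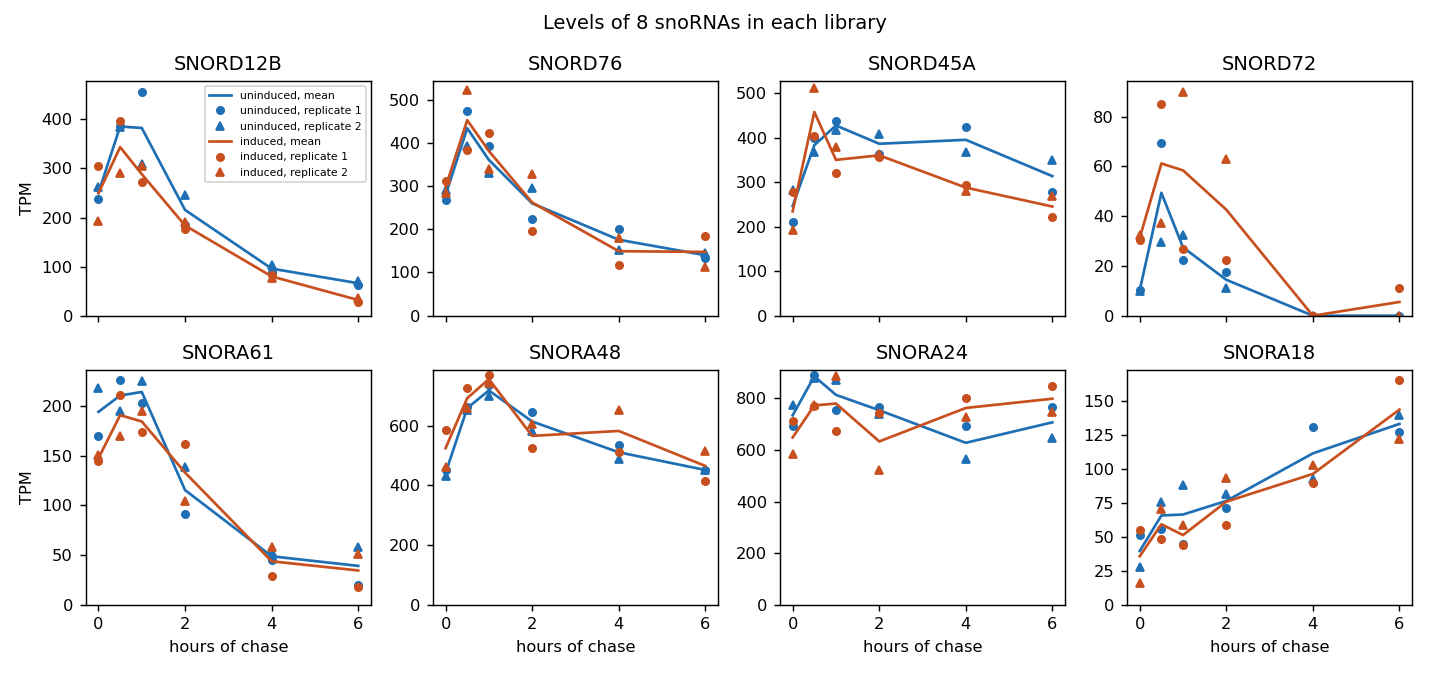
Level in TPM (y axis) of 8 snoRNAs against hours of chase (x axis), with circles for replicate 1, triangles for replicate 2 and lines through the group means. SNORD12B, SNORD76, SNORD72 and SNORA61 peak in the first hour and then fall, SNORD45A and SNORA48 rise early and at 6 h overlap their 0 h values, SNORA24 stays between 523 and 891 TPM and SNORA18 climbs to 122 to 165 TPM at 6 h.

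For each arm, log2(TPM + 1) was regressed on chase time with limma, and a slope was called at a Benjamini-Hochberg adjusted p under 0.05 over all 13416 genes. The slope is in log2 units per hour and is relative to the other labelled RNAs of the library, since TPM cannot show a loss that all RNAs share. In uninduced cells 13 of 68 SNORD members fell (19.1%) and 4 rose, and 29 of 89 SNORA members fell (32.6%) and 3 rose. Of all genes kept, 65.1 percent were called, with 22.3 percent falling and 42.8 percent rising. In induced cells 13 SNORD members fell (19.1%) and 1 rose, and 30 SNORA members fell (33.7%) and 3 rose, where 70.7 percent of all genes were called, with 29.0 percent falling and 41.6 percent rising. The share of falling SNORD members lay under that of all genes in both arms and the share of falling SNORA members above it, by a smaller margin in induced cells, and the share of rising members was a small part of the background. Scaled to protein-coding transcripts, rising genes were 50.0% of all called genes in place of 65.8% in uninduced cells, and 42.2% in place of 58.9% in induced cells, while falling genes made up 30.8% of all genes in uninduced and 39.9% in induced cells. On that scale 16 SNORD (23.5%) and 36 SNORA members (40.4%) fell in uninduced and 19 (27.9%) and 37 (41.6%) in induced cells. The median slope was -0.09 for SNORD and -0.09 for SNORA in uninduced cells, where that of all genes was 0.04. In induced cells it was -0.09 for SNORD and -0.12 for SNORA, where that of all genes was 0.03. The median standard error of a slope was 0.168 for SNORD, 0.0831 for SNORA and 0.0276 for all genes, so a slope of a given size passed less readily for a SNORD than for a SNORA member.

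The SNORD count in uninduced cells was 8 instead of 13 without replicate 2 at 6 h. In induced cells it was 8 without replicate 1 at 0.5 h, without replicate 1 at 4 h, and without replicate 2 at 4 h. The SNORA count in uninduced cells was 19 on the replicate 2 libraries alone.

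Among SNORD members averaging at least 5 TPM, SNORD72 had the steepest fall in uninduced cells, with a slope of -0.91 (SE 0.181, limma adjusted p = 0.000116), and a slope of -0.86 (SE 0.181, adjusted p = 0.000178) in induced cells. SNORD72 stood at 69.3 and 29.4 TPM in uninduced cells at 0.5 h and was at 0 in all 4 libraries of that arm at 4 and 6 h. It was also at 0 in both induced libraries at 4 h, and at 11.0 and 0 TPM there at 6 h. SNORD12B fell with slopes of -0.42 (SE 0.0481, adjusted p = 6.05e-08) and -0.55 (SE 0.0481, adjusted p = 5.81e-10), and SNORD76 with slopes of -0.24 (SE 0.0464, adjusted p = 8.91e-05) and -0.27 (SE 0.0464, adjusted p = 2.01e-05). SNORD22, an RNA of precursor cleavage, fell from 106, 74.1, 113 and 74.4 TPM at 0 h to 38.7, 40.9, 38.8 and 43.0 at 6 h, with slopes of -0.24 (adjusted p = 0.002) and -0.20 (adjusted p = 0.00605).

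The 4 SNORD members called rising in uninduced cells averaged between 3.33 and 38.5 TPM. SNORD84 had slopes of 0.64 (SE 0.213, adjusted p = 0.0107) and 0.49 (SE 0.213, adjusted p = 0.0414), and stood at 0, 10.4, 31.7 and 8.46 TPM at 0 h against 51.3, 39.1, 116 and 34.2 at 6 h. It was the single SNORD member called rising in both arms, and its 0 h and 6 h values did not overlap. The induced call of SNORD84 was lost in 14 of 38 alternatives, among them each of the 4 other scalings. It was also lost without either replicate at 0.5 h (slope 0.37), without replicate 2 at 0 h (0.51) and without replicate 1 at 6 h (0.40). SNORD88A (0.46, adjusted p = 0.0452) and SNORD94 (0.41, adjusted p = 0.0286) passed in uninduced cells. The call of SNORD88A was lost on leaving out any of 7 single libraries, with slopes of 0.30 to 0.50. That of SNORD94 was lost without replicate 2 at 0.5 h (0.30), replicate 2 at 0 h (0.39) or replicate 1 at 4 h (0.37), and its slope was 0.08 on the replicate 1 libraries alone and 0.75 on the replicate 2 libraries alone. The remaining riser there, SNORD47, was above 0 in 6 of 24 libraries, of which both uninduced libraries at 6 h, at 21.0 and 20.0 TPM, were the highest.

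SNORA members gave narrower errors. SNORA61 fell with slopes of -0.48 (SE 0.0625, adjusted p = 4.68e-07) and -0.47 (SE 0.0625, adjusted p = 4.79e-07). SNORA4, within the translation factor gene EIF4A2, stood at 127, 112, 154 and 94.4 TPM at 0 h and at 44.4, 49.2, 37.5 and 15.4 at 6 h, with slopes of -0.33 (SE 0.0735, adjusted p = 0.000429) and -0.50 (SE 0.0735, adjusted p = 2.04e-06). SNORA10, within RPS2, a gene for a ribosomal protein, was among the most abundant at 409 TPM and fell slowly, with slopes of -0.13 and -0.14 (adjusted p = 0.0021 and 0.00147). Without replicate 2 at 6 h its uninduced slope was -0.09 and did not pass. SNORA24 and SNORA48 did not pass in either arm.

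SNORA18 rose with slopes of 0.26 (SE 0.0579, adjusted p = 0.00049) and 0.31 (SE 0.0579, adjusted p = 5.05e-05). SNORA7B stood at 45.2, 14.3, 21.2 and 26.9 TPM at 0 h and at 88.1, 72.9, 114 and 99.9 at 6 h, with slopes of 0.24 (SE 0.0545, adjusted p = 0.000428) and 0.29 (SE 0.0545, adjusted p = 5.97e-05). The 0 h and 6 h values of SNORA7B did not overlap. SNORA71A rose in uninduced cells (0.20, SE 0.0613, adjusted p = 0.00557) and had a slope of 0.13 (adjusted p = 0.0627) in induced ones, while its near copies SNORA71C and SNORA71D fell in both arms. Reads of such copies may have been divided between them, so their separate levels are uncertain. SNORA59A and SNORA59B, and likewise SNORD62A and SNORD62B, had identical values in all libraries.

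The calls overlapped between the arms. Of the members falling in uninduced cells, 32 (76.2%) also fell in induced cells, which was 74.4% of those falling there. This overlap of calls was not counted over all genes. Slopes of the 2 arms had the same sign for 76.5% of SNORD and 82.0% of SNORA members, against 89.6% of all genes. SNORA18, SNORA7B and, by the induced call described above, SNORD84 rose in both arms, and no member was called in opposite directions. Across members the slopes of the 2 arms correlated with Pearson r = 0.82 for SNORD (n = 68) and 0.73 for SNORA (n = 89), against 0.93 for all genes. These are correlations across genes, which are not independent replicates, and the arms share times and preparation.

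A line describes a course with a peak poorly, so 2 further contrasts over both arms were added after the profiles had been seen. From 0 h to the mean of 0.5 and 1 h, 4 SNORD and 10 SNORA members rose and none fell at adjusted p under 0.05, that is 5.88% and 11.2% of each class, where 12.8 percent of all genes were called, with 10.7 percent rising and 2.04 percent falling. At an unadjusted p under 0.05, 12 SNORD (17.6%) and 26 SNORA members (29.2%) differed, as did 27.9% of all genes. The median difference was 0.44 for SNORD, 0.34 for SNORA and 0.09 for all genes on the log2 scale. SNORA45A rose by 1.18 (SE 0.191, adjusted p = 0.00106), from 69.8, 53.6, 75.4 and 53.6 TPM at 0 h to 172, 118, 127 and 139 at 0.5 h. SNORD45A rose by 0.76 (SE 0.108, adjusted p = 0.000432), SNORA48 by 0.56 (SE 0.0802, adjusted p = 0.000452), SNORA71A by 0.91 (SE 0.193, adjusted p = 0.00628) and SNORD12B by 0.48 (SE 0.133, adjusted p = 0.0259). The count of 14 depended on single libraries at 0 h: it was 5 without the uninduced and 7 without the induced replicate 2. SNORA71A lost its call without either of these (0.68 and 0.82), and SNORD12B on leaving out any of 5 single libraries (0.32 to 0.52).

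From the first hour to 6 h, 22 SNORD members fell (32.4%) and 3 rose, and 39 SNORA members fell (43.8%) and 3 rose, where 73.7 percent of all genes were called, with 31.1 percent falling and 42.7 percent rising. The median difference was -0.66 for SNORD and -0.62 for SNORA, against 0.13 for all genes. Scaling to protein-coding transcripts moved the median of all genes to -0.10 and those of the classes to -0.88 and -0.88. This late log2 difference was -4.56 for SNORD72 (SE 0.496, adjusted p = 3.14e-07), -2.88 for SNORD12B (SE 0.133, adjusted p = 7.04e-12), -2.58 for SNORA61 (SE 0.27, adjusted p = 1.93e-07) and -2.33 for SNORA4 (SE 0.283, adjusted p = 1.13e-06). SNORA48, which had no called slope, fell by 0.62 (SE 0.0802, adjusted p = 2.24e-06). Of the 61 members that fell late, 11 had no falling slope in either arm, and 8 of the 14 early risers were among the 61. Both contrasts use the same 0.5 and 1 h libraries, with opposite sign. A value high by spread there enters both, so this overlap is no evidence of a peak. It was not counted over all genes.

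Induction of TOB2 S254D was compared in 3 ways. No member passed for a slope difference, induced minus uninduced, by limma with the same adjustment, where 0.343 percent of all genes passed. At an unadjusted p under 0.05, 1 SNORD (1.47%) and 3 SNORA members (3.37%) differed, against 12.5% of all genes, and the smallest adjusted p was 0.386 for SNORD and 0.277 for SNORA. SNORA72 had the slope difference with that smallest p, at -0.29 (95% interval -0.52 to -0.05), and it stood at 23.7 and 18.8 TPM in uninduced against 8.92 and 9.88 in induced cells at 6 h. The difference for SNORD12B was -0.13 (95% interval -0.27 to 0.01). The median difference was -0.01 for SNORD, -0.02 for SNORA and -0.01 for all genes.

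At 0 h no member passed either, where 0.0298 percent of all genes passed. Of the members, 4 SNORD (5.88%) and 3 SNORA (3.37%) had an unadjusted p under 0.05, against 6.57% of all genes, with smallest adjusted p-values of 0.378 and 0.308. With 2 libraries per arm at 0 h the median standard error of this log2 difference was 1.10 for SNORD and 0.593 for SNORA, against 0.176 for all genes.

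The mean over the 6 times differed for 8 members: 3 SNORD were higher and 2 lower in induced cells, and 1 SNORA was higher and 2 lower. That was 7.35% of SNORD and 3.37% of SNORA members, where 25.7 percent of all genes passed, 14.3 percent higher and 11.4 percent lower. Without uninduced replicate 1 at 4 h the count was 5. The median difference was -0.12 for SNORD, against 0.05 for all genes. For SNORA it was -0.02, a value that turned to 0.01 when levels were scaled to protein-coding transcripts. Those medians accompany the higher summed level of MALAT1, NEAT1 and KCNQ1OT1 in induced libraries given above, whose part in the arm comparison was not tested.

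SNORA76C was the member with the smallest adjusted p in this comparison. At 0 h it stood at 188 and 217 TPM in uninduced and 187 and 231 in induced cells, which overlapped. At 0.5 h it stood at 280 and 227 against 142 and 139 TPM, and at 6 h at 85.9 and 108 against 57.2 and 74.7 TPM, with every induced value the lower. The mean difference of SNORA76C was -0.42 (SE 0.0818, adjusted p = 0.0015). SNORD12B differed by -0.35 (SE 0.0885, adjusted p = 0.00864), SNORD22 by -0.43 (SE 0.142, adjusted p = 0.036) and SNORA60 by -1.19 (SE 0.358, adjusted p = 0.0231). The call of SNORD22 was lost on leaving out any of 13 single libraries (-0.43 to -0.34) and that of SNORA60 without induced replicate 1 at 2 h (-1.05). SNORA60 was at 0 in both induced libraries at 0 h and at 16.1 and 7.60 TPM in the uninduced ones.

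The members called higher in induced cells were low. SNORD67 was above 0 in 1 of 12 uninduced and 8 of 12 induced libraries, reaching 5.46 and 18.6 TPM, with a difference of 1.90 (SE 0.51, adjusted p = 0.0124). SNORD67 thus passed the filter of 1 TPM through the arm where it was called higher. Its call is not independent of that filter. SNORD11 was above 0 in 4 and 7 libraries (1.32, SE 0.452, adjusted p = 0.0412), and SNORD72 in 8 and 9 (0.97, SE 0.331, adjusted p = 0.0406). The call of SNORD11 was lost on leaving out any of 19 of the 24 libraries (1.03 to 1.40) and that of SNORD72 any of 17 (0.83 to 1.02). For these 3 the difference on the log2(TPM + 1) scale depends on the pseudocount. SNORA77, above 0 in all libraries, was higher by 0.84 (SE 0.261, adjusted p = 0.0269), a call lost on leaving out any of 4 single libraries (0.74 to 0.78). Its 2 uninduced values were 4.41 and 8.74 TPM at 0.5 h against 45.4 and 33.2 in induced cells, but at 4 h the induced values of 31.4 and 3.91 TPM lay on either side of the uninduced ones.

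Agreement of the 2 replicates was lower for snoRNAs than for genes in general. For the 68 SNORD members, the 816 pairs of libraries of a group held 411 pairs (50.4%) with both values above 0, 184 (22.5%) with 1 at 0 and 221 (27.1%) with both at 0. For the 89 SNORA members the 1068 pairs held 884 (82.8%), 134 (12.5%) and 50 (4.68%). Over all genes kept the 3 shares were 98.4%, 0.858% and 0.693%. Where both values were above 0, the median fold between replicates was 1.47 for SNORD, 1.41 for SNORA and 1.14 for all genes, and 26.0%, 24.1% and 3.12% of such pairs differed by more than 2-fold.

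The SD between replicates, on log2(TPM + 1) and pooled over the 12 groups, had a median of 1.28 for SNORD and 0.687 for SNORA members, against 0.175 for all genes. Much of the gap between the classes went with level. Among members averaging at least 100 TPM the median SD was 0.401 for 10 SNORD and 0.357 for 25 SNORA members, and 0.124 for all genes of that range. From 20 to under 100 TPM it was 0.730 and 0.592, against 0.149. From 5 to under 20 TPM it was 1.95 and 1.28, against 0.188, and under 5 TPM 1.45 and 1.20, against 0.254. At matched TPM the snoRNAs remained wider than other genes by this SD in all 4 ranges, and SNORD members wider than SNORA members in all 4. TPM divides reads by transcript length, so genes matched on TPM are not matched on number of reads. The part of read number in these gaps was not tested. Pairs with 1 value at 0 enter this SD. Where both values were above 0, the median fold under 5 TPM was 1.18 for SNORD, 1.59 for SNORA and 1.29 for all genes. From 5 to under 20 TPM it was 1.58, 1.87 and 1.16, so by fold SNORA members were the wider at low level. That order rests on the pairs with both values above 0. Under 5 TPM these were 19 of 300 SNORD and 15 of 84 SNORA pairs. From 5 to under 20 TPM they were 43 of 144 SNORD and 258 of 372 SNORA pairs. From 20 TPM up SNORD members were the wider by fold. The closest replicates were those of SNORD45A (SD 0.193) and SNORD12B (0.243) among SNORD, and of SNORA48 (0.137) and SNORA24 (0.178) among SNORA members of at least 5 TPM. The widest were SNORD111B and SNORD87, and SNORA14A and SNORA38B.

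Slopes were also fitted to each replicate series alone, where both classes agreed less often than all genes and the order of the classes varied. In uninduced cells the 2 series had the same sign for 42 of 66 SNORD members (63.6%; a slope of 0 was not compared) and 66 of 89 SNORA members (74.2%), against 88.5% of all genes. In induced cells the counts were 49 of 62 SNORD (79.0%) and 64 of 89 SNORA members (71.9%), against 89.0%. Across members the slopes of the 2 series correlated with r = 0.59 for SNORD and 0.45 for SNORA in uninduced cells, and 0.40 and 0.56 in induced cells, against 0.88 and 0.91 over all genes. Among members of at least 20 TPM, r was 0.81 (31 SNORD) and 0.73 (51 SNORA) in uninduced and 0.67 and 0.76 in induced cells. The called slopes had the same sign in both series for 17 of 17 SNORD and 31 of 32 SNORA members in uninduced cells, and for all 14 SNORD and all 33 SNORA members in induced cells, which is a description, since the calls used both series.

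**Figure D3:**
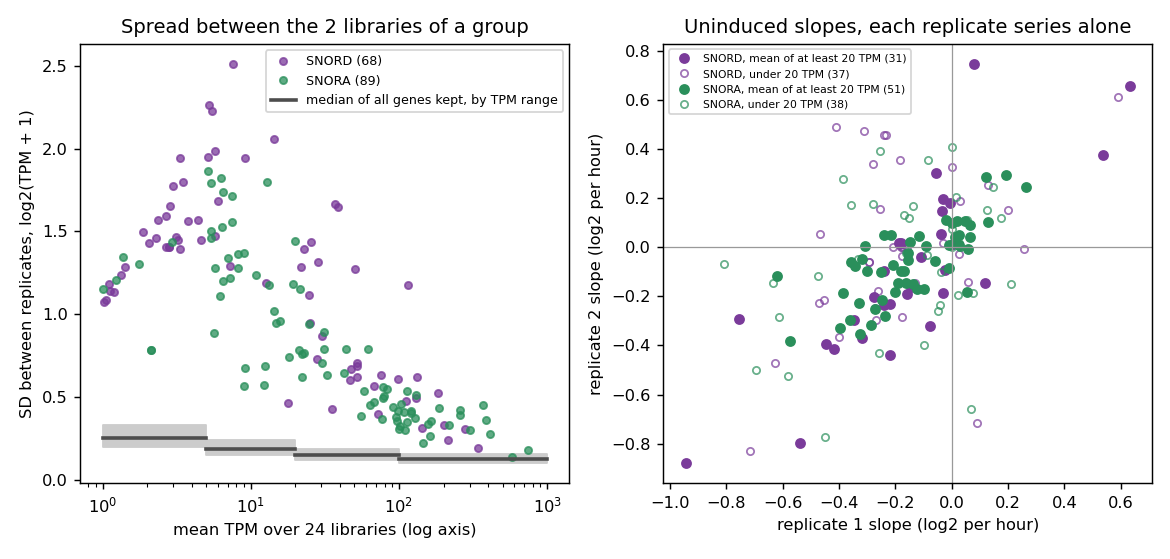
Left, SD between the 2 libraries of a group on log2(TPM + 1) (y axis) against mean TPM (x axis, log), with a point for each snoRNA and dark lines with grey bands for the median and quartiles of all genes kept in 4 TPM ranges; nearly all snoRNAs lie above the bands. Right, slope of replicate 1 alone (x axis) against replicate 2 alone (y axis) in uninduced cells, in log2 per hour, with filled points for the 31 SNORD and 51 SNORA members averaging at least 20 TPM.

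The genes that span the snoRNAs, on either strand and called hosts here, moved differently from the snoRNAs. By the RefSeq table, 153 of the 157 members lay within another gene that was kept, with 104 distinct host genes, and 32 members lay within 22 ribosomal protein genes. In uninduced cells the host rose for 105 of the 153 pairs (68.6%) and fell for 10 (6.54%), where 42.8 percent of all genes rose and 22.3 percent fell, while the snoRNA fell with a rising host in 22 pairs, with a falling host in 5 and with a host not called in 13. In induced cells the host rose for 103 pairs (67.3%) and fell for 10 (6.54%), where the shares of all genes were 41.6 percent and 29.0 percent, and those snoRNA counts were 27, 5 and 9. The snoRNA slope was below the host slope in 126 of 153 pairs in uninduced and 124 in induced cells, and in at least 121 under each of 4 other scalings. How often the slopes of other genes lay below those of these hosts was not counted. The median slope of all genes, 0.04 in uninduced and 0.03 in induced cells, was also below that of the hosts. The count is therefore not particular to snoRNAs. Of the distinct hosts, 76 rose and 5 fell in uninduced cells on the deposited scale, and 57 rose and 15 fell on the protein-coding scale. The median slope was -0.08 for the snoRNAs and 0.09 for their hosts in uninduced cells, and -0.11 and 0.11 in induced cells. Pearson r between snoRNA and host slopes was 0.08 and 0.05 across pairs, of which many share a host.

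**Figure D4:**
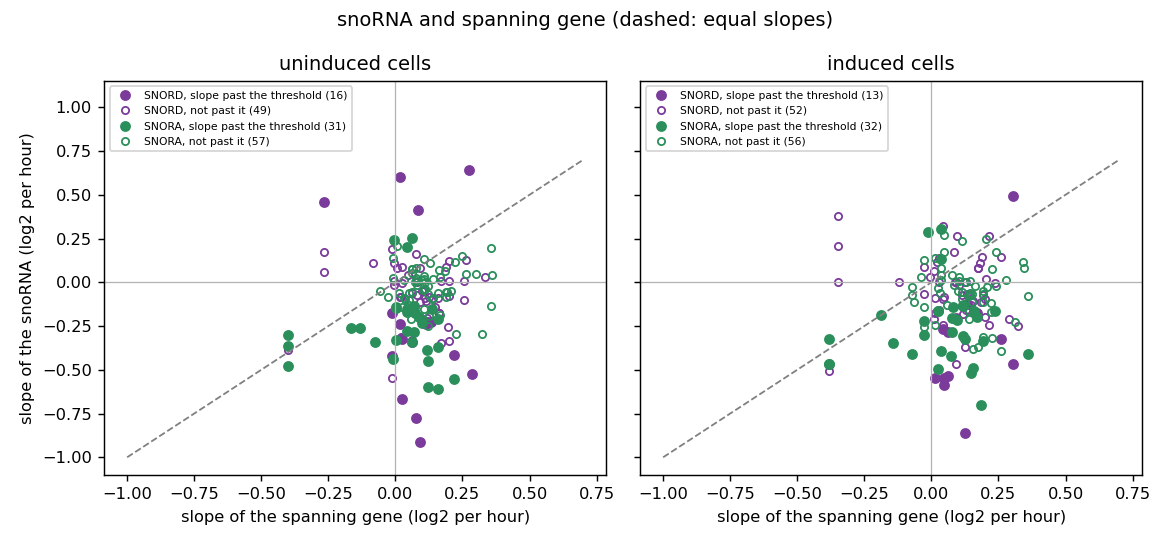
Slope of each snoRNA (y axis, log2 per hour) against the slope of the gene that spans it (x axis) for 153 pairs in uninduced (left) and induced (right) cells, with filled points for snoRNAs whose slope passed the threshold. Most points lie to the right of 0 and below the dashed line of equal slopes, and the SNORA members within SNHG12 lie near the line at the lower left.

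SnoRNAs of one host could share its course or divide. SNHG12, a noncoding host, fell with slopes of -0.40 and -0.38, and SNORA61, SNORA44 (-0.36 and -0.33) and SNORA16A (-0.30 and -0.46) fell with it in both arms. SNORD99, also within SNHG12, had slopes of -0.38 and -0.51 that did not pass in either arm. EIF4A2 had slopes of 0.00 and 0.02 that did not pass, while SNORA4, SNORA63 (-0.14 and -0.16) and SNORA81 (-0.15 and -0.17) all fell in both arms. TAF1D, which codes for a factor of ribosomal RNA transcription, had slopes of 0.06 and 0.04. Among its members SNORA18 rose and SNORA1 fell (-0.34 and -0.39) in both arms, SNORA25 rose in induced cells (0.13, SE 0.0459, adjusted p = 0.0121), and SNORA8, SNORA32 and SNORA40 did not pass in either arm. In SNHG17, SNORA71A rose in uninduced cells at 389 TPM where SNORA71B, SNORA71C and SNORA71D fell. C19orf48 fell (-0.27 and -0.35) while SNORD88A within it rose in uninduced cells. RefSeq's strand was not used, and reads of an unspliced host can overlap those of its snoRNA.

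Transcripts for the proteins that bind snoRNAs mostly had slopes above 0, in a table where 42.8 percent of genes rose in uninduced and 41.6 percent in induced cells. Of the 4 core proteins of box C/D particles, 3 rose in each arm and none fell. FBL, the methyltransferase fibrillarin, had slopes of 0.16 and 0.21, and NHP2L1 (SNU13), which binds the box C/D motif first, 0.16 and 0.20. Of the 4 core proteins of box H/ACA particles, 4 rose in uninduced and 3 in induced cells, with DKC1, the pseudouridine synthase dyskerin, at 0.14 and 0.16. Of 16 assembly and maturation factors, 10 rose and 1 fell in uninduced cells and 10 rose and 4 fell in induced cells. RUVBL1, an ATPase of particle assembly, had slopes of 0.26 and 0.33, and COIL, the Cajal body protein coilin, fell with slopes of -0.13 and -0.28. No gene of these 3 lists passed for a slope difference. The median slopes of the 3 lists were 0.12, 0.08 and 0.11 in uninduced cells, against 0.04 for all genes. These directions were relative: under quantile normalization 1 box C/D core gene fell in uninduced cells, and 7 assembly factors rose and 4 fell there, while under median-of-ratios scaling 1 of the 4 H/ACA core genes rose in uninduced and 2 in induced cells.

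Cajal body RNAs, the SCARNA genes with TERC, are built on the same boxes and act in another nuclear body. Of 25 listed, 20 were kept, of which 4 rose and 3 fell in uninduced cells and 4 rose and 4 fell in induced cells, where 42.8 and 41.6 percent of all genes rose and 22.3 and 29.0 percent fell. With quantile normalization 2 rose and 6 fell, and 1 rose and 4 fell. Their mean over the 6 times was higher in induced cells for 7 and lower for none, with a median difference of 0.25, where 14.3 percent of all genes were higher. With median-of-ratios scaling 3 were higher, SCARNA7 not among them. On the deposited scale SCARNA7 was higher by 0.34 (SE 0.0849, adjusted p = 0.009) and SCARNA6 by 0.49 (SE 0.118, adjusted p = 0.00615). Among 5 other nuclear or nucleolar RNAs, 3 were higher by the same test (MALAT1 by 0.96, NEAT1 by 0.82 and KCNQ1OT1 by 0.36) and RPPH1 was lower (-0.18). The difference between these RNAs and the snoRNAs in the arm comparison was not itself tested.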

How the data were processed

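Labelled cytoplasmic RNA of 24 libraries was analysed from one deposited file of RefSeq transcripts. The deposited values are TPM, and per the submitters' processing notes Trim Galore, Bowtie2, RSEM 1.3.0 and hg19 were used, with no roles given. TPM of the 48009 transcripts was summed by gene symbol to 25341 genes (3 transcripts without a symbol were at 0), and a filter at a mean of 1 TPM left 13416 genes. The depth of the libraries is unknown, and no counting error was computed. Low values recurred across members. In uninduced replicate 1 at 6 h SNORA20, SNORA38 and SNORA38B were each at 3.96 TPM and SNORA51 was at 19.8 TPM. Such values may rest on few reads, which was not tested.

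The tests used limma (3.58.1, R 4.3.3) with a variance trend and no replicate block on log2(TPM + 1): a line on hours per arm (20 residual degrees of freedom) and a mean per group (12). Tests were two-sided. P-values were adjusted by Benjamini-Hochberg over the genes kept. In the group fits they measure only the spread between these libraries, which may be technical. In the line fits the residual also holds the departure of the group means from a straight line. The code of the fits was tried on simulated data with normal noise and added slopes. Those data lacked the zeros common in low members, so they do not show how the fits treat such members. Other tools were the R package data.table, version 1.17.8, Python 3.11.15 and matplotlib 3.10.9.

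The members and lists were chosen with earlier results of these data known. Named members are, per class and comparison, those called (beyond 6, the 3 largest each way among members averaging 5 TPM or more whose replicate series agreed in sign), the 3 highest, the 2 with the closest and the 2 with the widest replicates, those of precursor cleavage, those beside the filter and, where none passed, those with the smallest p. Others (SNORA61, SNORA44, SNORA45A, SNORD47, the early and late examples, the microRNA overlaps and the host examples) were picked after their values were seen. Hosts came from the RefSeq table (GRCh38.p14), which gave no strand. Alternatives changed the pseudocount, filter, scaling, time range, variance model and libraries.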

Additional observations from a re-analysis of the deposited data

How the results depend on the processing

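No named called value changed sign under any alternative run. The median mean difference of SNORA members changed sign when scaled to protein-coding transcripts, and with quantile normalization 1 SNORA member fell early. Of 2554 alternative values of 70 called results of named members, 2365 kept the call and 189 lost it, and 8 named results without a call gained none in 292. The mean differences of SNORD11 (lost in 23 of 35), SNORD72 (21 of 35) and SNORD22 (15 of 35) and the uninduced slope of SNORD88A (17 of 38) were lost most often. The replicate numbers were only shared: deviations from the group means correlated between arms at 0.02 to 0.156, not above 0.1 at every time. With the replicate block the mean difference had 12 calls against 8, the early rise 21 against 14, and the slope difference 0. Without depth, a value of 0 in a low member does not show absence.

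For 6 h minus 0 h, falling SNORA members in uninduced cells went from 29 to 15 and in induced cells from 30 to 18, falling SNORD in induced cells from 13 to 8, and rising members there from 4 to 8. The median per hour was then -0.0129 for SNORA in uninduced cells, -0.0544 for SNORA in induced cells and 0 for SNORD in induced cells. On 0 to 4 h, 16 SNORA members fell in uninduced cells, and the induced medians were -0.146 (SNORD) and -0.200 (SNORA). Without a filter, 8 SNORD members fell in induced cells (median -0.0171), 3 members had a mean difference and 9 rose early. With a filter at 5 TPM the induced SNORD median was -0.138, and 90.5% of SNORD members of at least 5 TPM had induced slopes of the same sign. Quantile normalization, the protein-coding scale and leaving out RMRP, MIR6723 and RPPH1 each left 2 rising members in induced cells, with SNORD medians of -0.132, -0.136 and -0.126. The induced SNORA median was -0.174 on the protein-coding scale. The 6 h share over the 0 h share became 0.603 (SNORD) and 0.735 (SNORA) without the 3 RNAs and 0.587 and 0.715 on the protein-coding scale. The mean-difference count of 8 was 5 with a pseudocount of 0.1 and 3 with robust variances. The cause of these changes was not tested.

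Leaving out 1 library, or all libraries of 1 replicate number, gave 8 to 17 falling SNORD, 19 to 32 falling SNORA and 3 to 8 rising members in uninduced cells, and 8 to 14, 20 to 35 and 2 to 7 in induced cells. It gave 5 to 11 mean differences and 5 to 21 early risers, 0 slope and 0 h differences, and 18 to 25 SNORD and 31 to 41 SNORA late fallers. Medians ranged from -0.179 to -0.0310 (SNORD, uninduced), -0.117 to -0.0361 (SNORD, induced), -0.139 to -0.0488 (SNORA, uninduced) and -0.157 to -0.0879 (SNORA, induced).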
